A study of Mus musculus with 3 samples.

Results

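Transcripts of 10 genes of the BCL2 family were measured in regulatory T cells (Tregs) that had been sorted out of mouse skin layers and lymph node. The genes were Bcl2, Bcl2l1, Mcl1, Bcl2a1b, Bcl2a1d, Bax, Bak1, Bcl2l11, Bbc3 and Pmaip1. They were taken by symbol, and all 10 were found in the table of 27998 genes that the 3 libraries share. Tregs, defined by the factor Foxp3, are the CD4 T cells that keep immune responses in check. Adult mice of strain FOXP3-EGFP (C.Cg-Foxp3tm2Tch/J) were used, in which Foxp3-expressing cells are green, and all 3 groups carry this reporter. The groups were epidermal Tregs and dermal Tregs of skin (the epidermis is given as that of the back) and lymph node Tregs, with 1 single-cell library each, sorted as GFP+ CD4+ CD3+ CD45+ cells. No treatment is named, and the labels say nothing of how many mice were used, their sex or their exact age. Skin layers were parted with thermolysin and the dermis was digested with collagenase, while lymph nodes were mashed. Skin cells were run with 3′ v3 chemistry of 10x Genomics and lymph node cells with v2. Tissue, handling and chemistry therefore cannot be told apart in any comparison with lymph node, and skin layer and digestion cannot be told apart between epidermis and dermis. The mix of cells with Y-linked and with Xist transcripts also differed between the libraries, as given below.

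The BCL2 family controls the mitochondrial route of apoptosis. Pro-survival members (the proteins of Bcl2, Bcl2l1, Mcl1 and the Bcl2a1 genes) hold the pore-forming effectors Bax and Bak1 in check, and BH3-only members (the proteins of Bcl2l11, Bbc3 and Pmaip1, known as BIM, PUMA and NOXA) bind the pro-survival members and release that check. T cells are known to rely on Bcl2 when resting and on Mcl1 at most stages, and Tregs are known to need Mcl1 and to be limited by Bcl2l11. Protein levels, which for Mcl1 are set in large part by rapid turnover, were not measured here.

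After barcodes with under 500 unique molecular identifiers (UMIs, each a captured transcript) or over 10% mitochondrial UMIs were left out, 9400 of 9419 barcodes remained in lymph node, 297 of 360 in epidermis and 875 of 1077 in dermis. They held 32906839, 2205131 and 4630059 UMIs, with medians of 3022, 6671 and 4726 UMIs per cell. All 6 Treg markers on the list (Foxp3, Il2ra, Ctla4, Ikzf2, Tnfrsf18 and Tnfrsf4) had UMIs in every library. Marker lists of other cell types summed to at most 390 CPM (a gene's UMIs scaled to a common library total), most of it Cd74, and the erythroid list to at most 0.432 CPM. Cd8a stood at 15.9 CPM in epidermis (35 UMIs), against 0.648 CPM in dermis and 0.577 CPM in lymph node. In the epidermal cluster of 48 cells named cycling-like below, 2 of 6 CD8 T or NK markers were raised, Cd8a and Cd8b1. Whether that cluster holds CD8 T cells was not tested. No list covered mural cells. A dermal cluster of 76 of the 875 cells was led by genes that include Sparcl1, Acta2, Tagln and Rgs5, known from contractile and vessel-wall cells, and also had 5 of 8 keratinocyte markers raised. Without it and the 15 B cell-like lymph node cells no call on a member changed. Of the barcodes, 43 occurred in both skin libraries, 1 in dermis and lymph node and 0 in epidermis and lymph node. In 39 of the 43 pairs the copies differed at least 5-fold in depth, and a median of 98.9% of the genes of the shallow copy were also seen in the deep one. The deep copy was epidermal in 30 of these 39 pairs and dermal in 9. Ratios between whole libraries were recomputed without these barcodes, and changes in calls are stated. All other values keep them, among them shares of cells, summed levels and cluster values.

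The members lie on 7 chromosomes, of which chromosomes 2, 7 and 9 hold 2 members each (GENCODE vM21 annotation of mm10, each a protein-coding gene). Bcl2 (ENSMUSG00000057329) spans 106538178 to 106714274 of chromosome 1 on the minus strand, Mcl1 (ENSMUSG00000038612) 95658788 to 95663176 of chromosome 3 on the plus strand, and Bcl2l1 (ENSMUSG00000007659) 152780668 to 152831728 of chromosome 2 on the minus strand. Bcl2l11 (ENSMUSG00000027381) spans 128126038 to 128162547 of chromosome 2 on the plus strand. Bcl2a1b (ENSMUSG00000089929) spans 89199209 to 89207827 of chromosome 9 on the plus strand, and its copy Bcl2a1d (ENSMUSG00000099974) 88723285 to 88731914 on the minus strand. Bax (ENSMUSG00000003873) spans 45461697 to 45466898 of chromosome 7 on the minus strand and Bbc3 (ENSMUSG00000002083) 16308393 to 16318205 of the same chromosome on the plus strand. Bak1 (ENSMUSG00000057789) spans 27019810 to 27029009 of chromosome 17 on the minus strand. Exons of Bcl2a1b and Bax overlap same-strand models (Gm29094 and Gm45808), and those of Bcl2 and Bak1 overlap opposite-strand ones (D630008O14Rik and Ggnbp1).

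Promoter sequence is shown for the pro-survival genes on which the results turn, that is Bcl2, which was low in skin, Mcl1, which was high there, and the 2 Bcl2a1 copies. Each line holds the 250 bases before the RefSeq start (GRCm38.p6), read 5′ to 3′ on the gene's strand. They are chr1:106714291-106714540 on the minus strand for Bcl2, chr3:95658471-95658720 on the plus strand for Mcl1, chr9:89199023-89199272 on the plus strand for Bcl2a1b and chr9:88731851-88732100 on the minus strand for Bcl2a1d. Capitals mark a match to the AP-1 motif TGANTCA or to an NF-kB motif, searched under its name alone, on either strand.
Bcl2: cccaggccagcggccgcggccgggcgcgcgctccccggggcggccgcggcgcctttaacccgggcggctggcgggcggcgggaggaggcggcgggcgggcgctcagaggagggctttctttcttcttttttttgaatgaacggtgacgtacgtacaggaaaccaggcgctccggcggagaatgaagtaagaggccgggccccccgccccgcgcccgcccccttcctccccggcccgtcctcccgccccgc
Mcl1: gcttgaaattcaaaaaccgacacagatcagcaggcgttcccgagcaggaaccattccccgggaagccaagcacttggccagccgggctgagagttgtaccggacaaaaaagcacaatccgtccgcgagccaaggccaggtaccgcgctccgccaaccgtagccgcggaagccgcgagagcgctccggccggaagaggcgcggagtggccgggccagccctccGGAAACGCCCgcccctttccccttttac
Bcl2a1b: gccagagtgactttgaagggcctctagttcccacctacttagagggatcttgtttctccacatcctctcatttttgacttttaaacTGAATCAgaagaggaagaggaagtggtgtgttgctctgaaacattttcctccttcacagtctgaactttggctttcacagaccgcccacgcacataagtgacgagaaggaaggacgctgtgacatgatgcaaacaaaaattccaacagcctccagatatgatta
Bcl2a1d: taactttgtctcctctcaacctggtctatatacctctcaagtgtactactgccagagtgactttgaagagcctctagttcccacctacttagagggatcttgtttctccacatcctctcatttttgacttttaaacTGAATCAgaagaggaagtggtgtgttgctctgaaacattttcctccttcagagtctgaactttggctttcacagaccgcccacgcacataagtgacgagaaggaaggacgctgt
Windows of 300 bases, which add the first 50 bases after the start, were searched on both strands for these motifs, for the CRE motif TGACGTCA, the FOXO motif GTAAACA and TATAAA. In the windows of the members no match of 1 motif overlapped that of another. Of 32817 promoter windows of this length 7.81% held TGANTCA, 1.63% the NF-kB motif, 1.79% TGACGTCA, 3.65% GTAAACA and 13.6% TATAAA. The Bcl2 window held none of the 5 and had a GC content of 76.0%, against a median of 52.7% over all windows. The Mcl1 window held 1 NF-kB motif match, 28 bases before the start. Both Bcl2a1 windows held 1 AP-1 motif match within the same run of letters, 164 bases before the start in Bcl2a1b and 114 bases in Bcl2a1d. Among the other members with a window, Bcl2l11 had 1 FOXO match and Bbc3 1 NF-kB match, and Bcl2l1, Bax and Bak1 had none. Only 1 window was searched per gene, the one whose start lay nearest the GENCODE start. Bcl2l1 and Bbc3 each had 3 windows and Bcl2l11 had 2, and the others of these were not searched. The start used lay 1190 bases from the GENCODE start for Bbc3 and 382 bases for Bak1. A match describes letters only and is not evidence that a factor binds.

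**Figure D1:**
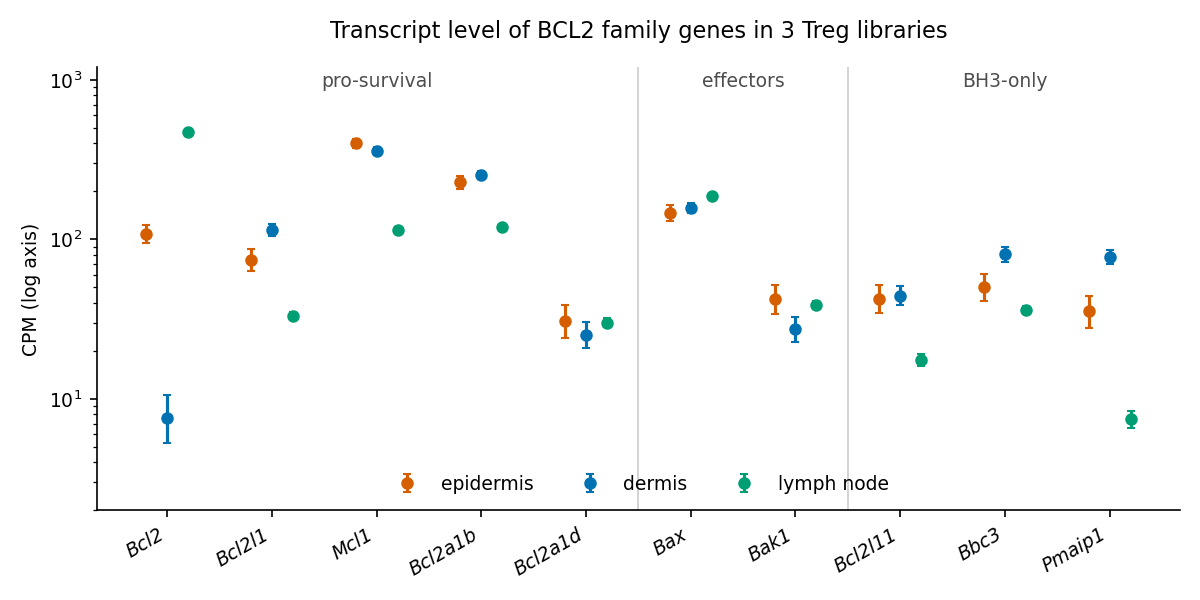
Level of each of the 10 genes in the 3 libraries, in CPM on a log axis. Points are sums over all kept cells of 1 library, and bars are exact Poisson 95% intervals, which cover counting error only. Bcl2 spans 7.56 CPM in dermis to 471 CPM in lymph node, while Bax stays between 147 and 188 CPM.

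Bcl2 was the member that differed most between the libraries, and in the direction opposite to most of the others. It stood at 108 CPM in epidermis (238 UMIs, 95% interval 94.7 to 123), 7.56 CPM in dermis (35 UMIs, 5.27 to 10.5) and 471 CPM in lymph node (15504 UMIs, 464 to 479). Lymph node was thus highest, epidermis intermediate and dermis far below both, and the 3 intervals did not overlap. Lymph node exceeded dermis 62.3-fold (44.8 to 89.5) and epidermis 4.37-fold (3.84 to 4.98), and epidermis exceeded dermis 14.3-fold (9.98 to 20.99). Among the 5880 genes compared between the skin layers only 4 had a higher ratio of epidermis to dermis, and among the 5940 genes compared between dermis and lymph node only 7 had a lower ratio of dermis to lymph node. Intervals here cover counting error only, since with 1 library per tissue no test between tissues can be made.

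The difference in Bcl2 was also one of how many cells carried it. With every cell thinned to 1500 UMIs, a Bcl2 UMI was found in 44.0% of 9308 lymph node cells (exact Clopper-Pearson 95% interval 43.0 to 45.0). The share was 12.6% of 262 cells in epidermis (8.83 to 17.2) and 1.21% of 828 cells in dermis (0.581 to 2.21). Before thinning the shares were 63.4%, 21.9% and 2.40%. Thinning left out 92, 35 and 47 shallower cells in the same order. The dermal Bcl2 UMIs came from 21 cells, and the 5 highest of these held 42.9% of them. The background of free RNA was not estimated, and whether the dermal share lies above that background was not tested. Without the barcodes found in both skin libraries the log2 ratio of epidermis to dermis was 4.17, against 3.84 with them.

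Mcl1, whose short-lived protein restrains Bak1, was the most abundant member in UMIs in both skin libraries and was lowest in lymph node. It stood at 402 CPM in epidermis (886 UMIs, 376 to 429), 361 CPM in dermis (1673 UMIs, 344 to 379) and 114 CPM in lymph node (3761 UMIs, 111 to 118). The skin layers were close to each other, at a ratio of 1.11 (1.02 to 1.21), and both were above lymph node, epidermis 3.52-fold (3.26 to 3.78) and dermis 3.16-fold (2.98 to 3.35). Among thinned cells a Mcl1 UMI was found in 15.2% of lymph node cells, 44.3% of epidermal and 42.2% of dermal cells, and before thinning in 30.6%, 79.8% and 73.8%. Both skin ratios passed 2-fold under all 21 alternative settings. In lymph node, 37.4% of thinned cells had a Bcl2 UMI and no Mcl1 UMI and 8.62% had the reverse. In dermis these shares were 0.845% and 41.8%, and in epidermis 7.25% and 38.9%.

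Bcl2l1, which encodes BCL-XL, followed the order of Mcl1 in part, with its maximum in dermis. It stood at 74.4 CPM in epidermis (164 UMIs, 63.4 to 86.7), 115 CPM in dermis (533 UMIs, 106 to 125) and 33.3 CPM in lymph node (1095 UMIs, 31.3 to 35.3). Epidermis exceeded lymph node 2.23-fold (1.88 to 2.64) and dermis exceeded it 3.46-fold (3.11 to 3.84). Epidermis was 1.55-fold lower than dermis (1.30 to 1.86), which is under the 2-fold limit. The call against lymph node was lost in epidermis without the barcodes in both skin libraries (log2 ratio 0.90 against 1.16) and under all 3 other scalings, while in dermis it held in all 21 settings.

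The Bcl2a1 copies, which encode A1, a pro-survival protein induced by antigen receptor and NF-kB signals, were higher in skin as a sum. Bcl2a1b stood at 228 CPM in epidermis (503 UMIs), 253 CPM in dermis (1173 UMIs) and 120 CPM in lymph node (3943 UMIs), and Bcl2a1d at 30.8 CPM (68 UMIs), 25.3 CPM (117 UMIs) and 30.1 CPM (992 UMIs). Only Bcl2a1b in dermis reached 2-fold over lymph node, at 2.11-fold (1.98 to 2.26), and epidermis stood at 1.90-fold (1.73 to 2.09). The dermal call held in 16 of 21 settings. The epidermal ratio stayed under 2-fold in 14 of 21 and passed it in the rest, among them without the barcodes in both skin libraries. Bcl2a1b thus sets the skin layers apart by the limit only. The copies cannot be read as separate genes with confidence. Of the 90-base windows in the last 300 bases of the transcript, where these libraries are read, 89.6% of Bcl2a1d and 50.2% of Bcl2a1b windows occur in another Bcl2a1 copy, and nothing in these sources says how the authors' counting treated such reads. Their sum was 259, 279 and 150 CPM in epidermis, dermis and lymph node, 1.86-fold (1.75 to 1.98) higher in dermis than in lymph node and so under the limit.

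**Figure D2:**
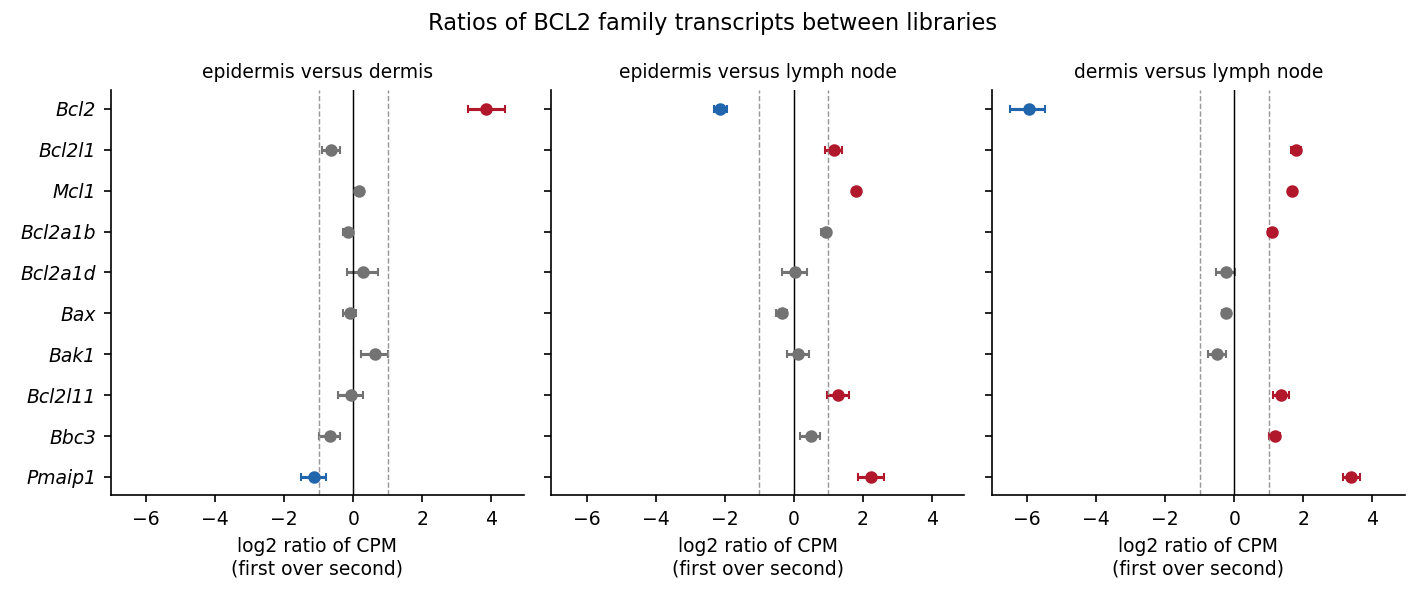
Log2 ratio of CPM for each gene between libraries, first over second, in the 3 comparisons. Bars are exact 95% counting intervals, dashed lines mark 2-fold, and colour marks a ratio of at least 2-fold with at least 20 CPM in the higher library (red higher, blue lower, grey neither). Bcl2 is blue in both comparisons with lymph node (-2.13 and -5.96), where Mcl1 is red (1.81 and 1.66).

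Calls of higher or lower needed a ratio of 2-fold or more, with 20 CPM or more in the higher of the 2 libraries. Between epidermis and dermis 1 member was called higher (Bcl2) and 1 lower (Pmaip1), and 8 were not called, where 3.74% of the 5880 genes compared were called higher and 3.84% lower. Between epidermis and lymph node 4 members were called higher (Mcl1, Bcl2l1, Bcl2l11 and Pmaip1), 1 lower (Bcl2) and 5 not called, where 19.7% of 5893 genes were called higher and 3.11% lower. Between dermis and lymph node 6 members were called higher (these 4 with Bcl2a1b and Bbc3), 1 lower (Bcl2) and 3 not called, where 24.6% of 5940 genes were called higher and 9.38% lower. The median log2 ratio of the members was -0.08, 0.71 and 1.12 in these comparisons, against 0.05, 0.19 and 0.16 over all genes compared. Both comparisons with lymph node share that library. With TMM scaling the median of all genes moved to -0.07, -0.35 and -0.30, and the share of called genes that were higher went from 49.3%, 86.4% and 72.4% to 35.4%, 40.5% and 41.9%. With TMM scaling 3 members were called between epidermis and lymph node (Bcl2, Mcl1 and Pmaip1) and 4 between dermis and lymph node (the same 3 with Bcl2l1), and none turned direction among those called.

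Although its parts differed, the summed level of the 5 pro-survival genes in CPM was similar in the 3 libraries. It was 843 CPM in epidermis (805 to 882), 763 CPM in dermis (738 to 788) and 769 CPM in lymph node (759 to 778). In CPM dermis and lymph node could not be told apart by their counting intervals, and epidermis lay slightly above both. This likeness holds for scaling by total UMIs. With TMM scaling the log2 ratio of Mcl1 to lymph node fell from 1.81 to 1.33 in epidermis and from 1.66 to 1.29 in dermis. Such a shift applies to every gene alike, so both skin sums would fall against lymph node. The sums were not recomputed with it. The gene that supplied most of the sum differed. Bcl2 made up 61.3% of pro-survival UMIs in lymph node, 12.8% in epidermis and 0.991% in dermis. Mcl1 made up 14.9%, 47.7% and 47.4% in the same order, the 2 Bcl2a1 copies 19.5%, 30.7% and 36.5%, and Bcl2l1 4.33%, 8.82% and 15.1%. Within a library these are shares of captured transcripts, not corrected for differences in capture between genes. For each Mcl1 UMI there were 4.12 Bcl2 UMIs in lymph node (3.98 to 4.27), 0.269 in epidermis (0.232 to 0.310) and 0.0209 in dermis (0.0145 to 0.0292). This ratio does not depend on how the libraries are scaled.

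**Figure D3:**
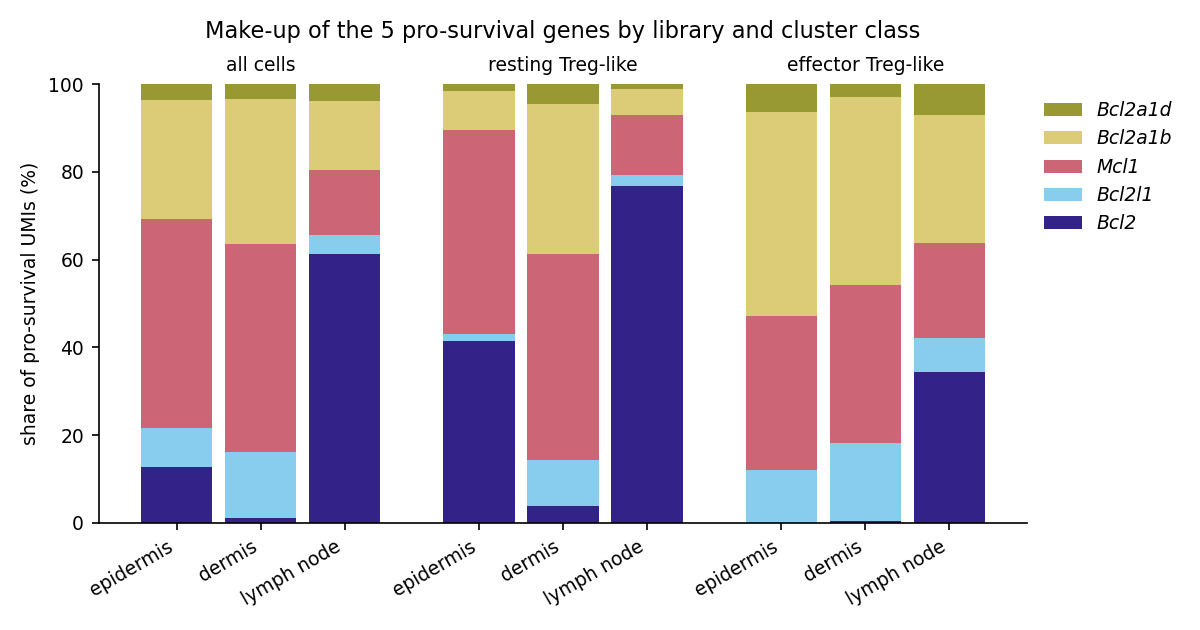
Share of each of the 5 pro-survival genes in their summed UMIs, in percent, for all cells of a library and for its resting Treg-like and effector Treg-like clusters. Each bar sums to 100%. Bcl2 fills 61.3% of the bar for all lymph node cells and 0.991% of the one for dermis.

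Neither of the pore-forming effectors, Bax and Bak1, was called in any comparison. Bax stood at 147 CPM in epidermis (324 UMIs, 131 to 164), 158 CPM in dermis (732 UMIs, 147 to 170) and 188 CPM in lymph node (6172 UMIs, 183 to 192). Bak1 stood at 42.2 CPM (93 UMIs, 34.0 to 51.7), 27.4 CPM (127 UMIs, 22.9 to 32.6) and 38.7 CPM (1275 UMIs, 36.7 to 40.9). The largest ratio of either was that of Bak1 in epidermis over dermis, 1.54 (1.16 to 2.02).

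Over all kept cells all 3 BH3-only genes were lowest in lymph node, and Bbc3 and Pmaip1 were highest in dermis. Bcl2l11 (BIM), the BH3-only gene known for removing T cells after cytokine loss and in tolerance, stood at 42.6 CPM in epidermis (94 UMIs, 34.4 to 52.2), 44.5 CPM in dermis (206 UMIs, 38.6 to 51.0) and 17.5 CPM in lymph node (577 UMIs, 16.1 to 19.0). The skin layers did not differ beyond counting error, and they exceeded lymph node 2.43-fold (1.93 to 3.03) and 2.54-fold (2.15 to 2.98). Bbc3 (PUMA), a known p53 target, stood at 50.3 CPM (111 UMIs, 41.4 to 60.6), 80.6 CPM (373 UMIs, 72.6 to 89.2) and 36.0 CPM (1184 UMIs, 34.0 to 38.1). Dermis exceeded lymph node 2.24-fold (1.99 to 2.52), and epidermis did so 1.40-fold (1.14 to 1.70). The dermal call of Bbc3 held in 16 of 21 settings. Its log2 ratio of epidermis to lymph node kept its direction in 20 of 21. In cells with a Foxp3 UMI that ratio was -0.21, against 0.48 in all cells.

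Pmaip1 (NOXA), whose protein binds MCL1 and A1, showed the widest range of the pro-death genes (ENSMUSG00000024521, chromosome 18, 66458533 to 66465565 on the plus strand). It stood at 35.4 CPM in epidermis (78 UMIs, 28.0 to 44.2), 77.8 CPM in dermis (360 UMIs, 69.9 to 86.2) and 7.45 CPM in lymph node (245 UMIs, 6.54 to 8.44). Dermis was above epidermis and epidermis above lymph node, with no overlap of intervals. Dermis exceeded lymph node 10.4-fold (8.85 to 12.3), epidermis exceeded lymph node 4.75-fold (3.63 to 6.15), and epidermis was 2.20-fold lower than dermis (1.72 to 2.85). Among thinned cells a Pmaip1 UMI was found in 1.03% of lymph node cells, 5.34% of epidermal and 9.18% of dermal cells (2.42%, 14.5% and 23.4% before thinning). The call between the skin layers held in 13 of 21 settings, and without the barcodes in both skin libraries the log2 ratio was -0.97 against -1.14. The call of dermis over lymph node held in all 21.

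The summed BH3-only level was 128 CPM in epidermis (114 to 144), 203 CPM in dermis (190 to 216) and 61.0 CPM in lymph node (58.3 to 63.7). With pro-survival sums so alike in CPM, the count of pro-survival UMIs per BH3-only UMI was 12.6 in lymph node (12.1 to 13.2), 6.57 in epidermis (5.79 to 7.47) and 3.76 in dermis (3.50 to 4.05). Lymph node had the highest ratio and dermis the lowest. With Bcl2 left out of the numerator the ratios were 4.88 (4.65 to 5.12), 5.73 (5.05 to 6.52) and 3.72 (3.46 to 4.01), and lymph node was no longer above epidermis. Mcl1 UMIs per Pmaip1 UMI were 15.4, 11.4 and 4.65 in the order lymph node, epidermis and dermis.

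Transcripts of immediate early and heat shock genes, a mixed list that rises with activation and with tissue dissociation, moved with the skin libraries. The 18 genes summed to 8692, 17609 and 3119 CPM in epidermis, dermis and lymph node, and Atf3 had no UMI in lymph node. Among cells with at most 1% of UMIs on this list (189 in epidermis, 174 in dermis, 9371 in lymph node), the log2 ratio of dermis to lymph node was -6.61 for Bcl2, 1.49 for Mcl1, 1.72 for Bcl2l1 and 1.97 for Pmaip1, and all 4 calls held. For Bcl2l11, Bcl2a1b and Bbc3 it was 0.39, 0.11 and 0.77, and these 3 calls were lost. Bcl2a1d, not called in all cells, was lower in dermis than in lymph node (-1.81) and higher in epidermis than in dermis (1.77) in these cells. Counting intervals were not computed for these cells. All 875 kept dermal cells held only 117 Bcl2a1d and 35 Bcl2 UMIs, so the ratios of these genes in 174 dermal cells rest on few UMIs. Pmaip1 was -0.24 between epidermis and dermis in these cells, against -1.14 in all, and its call was lost. The ratios of pro-survival to BH3-only UMIs given above were not recomputed in these cells. The share of barcodes over the mitochondrial limit was also higher in skin, at 17.5% in epidermis and 18.8% in dermis against 0.202% in lymph node, and its part in the results was not tested beyond a stricter limit of 5%, under which the Bcl2 ratio of dermis to lymph node was -6.73.

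**Figure D4:**
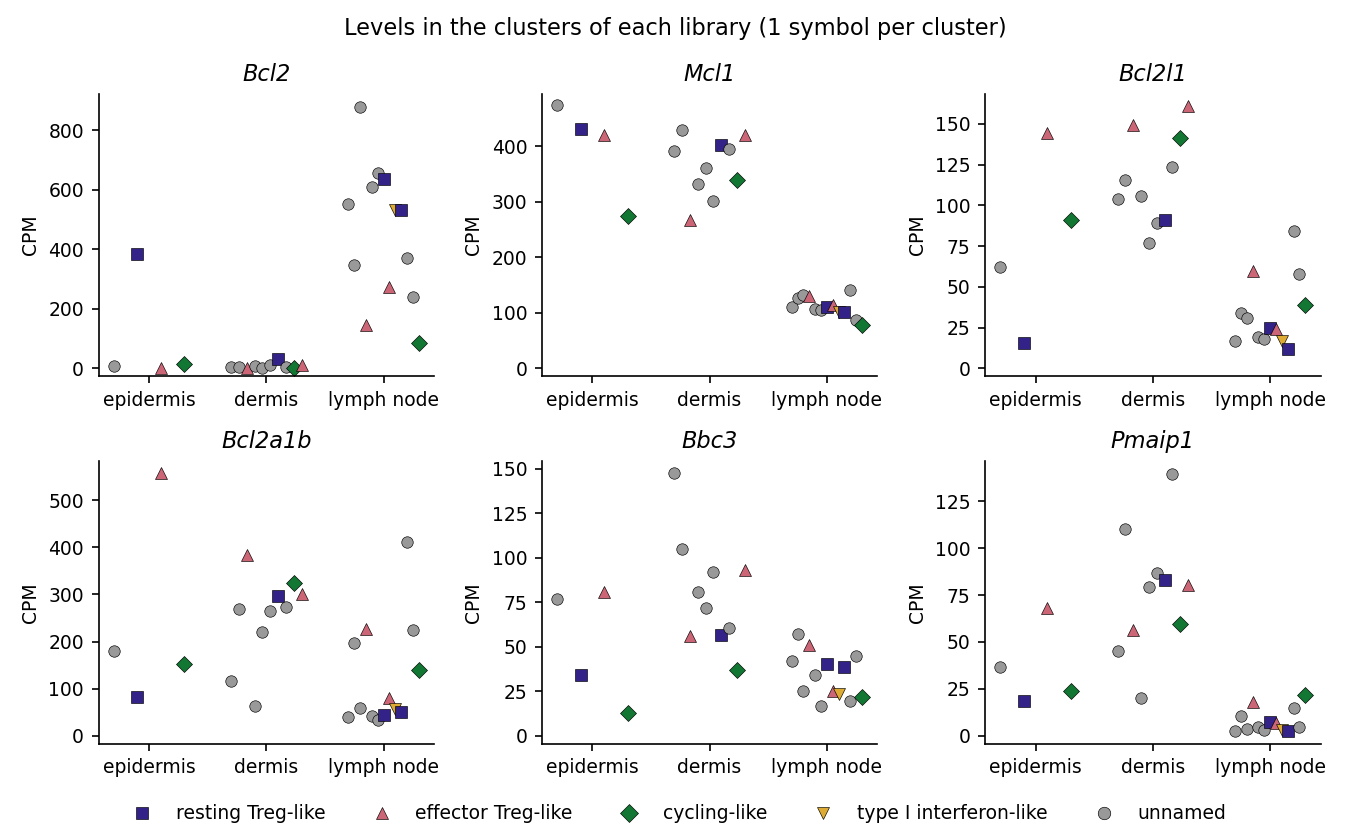
Level of 6 members, in CPM, in each cluster of at least 20 cells, with 1 symbol per cluster (4 in epidermis, 10 in dermis, 13 in lymph node) and the shape giving the cluster's name. Bcl2 is high in 1 epidermal cluster (384 CPM, resting Treg-like) and in all lymph node clusters. Mcl1 is above 267 CPM in each skin cluster and between 78.0 and 141 CPM in each lymph node cluster.

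Cells were clustered within each library without the members or other apoptosis genes, so that the levels of the members in a cluster were not used to form it. Clusters were called resting Treg-like or effector Treg-like from markers such as Lef1 and Satb1 or Ccr8, Areg and Klrg1, with 3 or more of them raised and 1 or more among the 10 leading genes. In epidermis 82 cells were resting Treg-like and 66 effector Treg-like, in dermis 75 and 160, and in lymph node 1222 and 1579. Other clusters stayed unnamed. In lymph node these include the largest cluster, of 1323 cells, which had Satb1 and Ccr7 among its leading genes. It had 0 of 10 resting markers raised and is not part of the resting Treg-like cells. In epidermis an unnamed cluster of 101 cells had 5 of 15 effector markers raised, Klrg1 and Gata3 among them, but none among its leading genes. The resting Treg-like clusters were not alike. Of the 10 resting markers 9 were raised in the epidermal cluster, 6 in the dermal one, and 6 and 3 in the lymph node ones. The dermal cluster also had 7 of 8 type I interferon markers raised and the epidermal one 6, against 0 in both lymph node ones. Tcf7 was not raised in the dermal cluster and had 7 UMIs in the whole dermal library, and Cxcr3 and Ifng were among the leading genes of that cluster. The effector Treg-like clusters were not alike either. Of the 15 effector markers 13 were raised in the epidermal cluster, 5 and 3 in the dermal ones, and 11 and 4 in the lymph node ones. Ccr8 was raised in the skin ones and in neither lymph node one, and the resting marker Ccr7 was raised in both dermal ones. A marker counts as raised against the rest of its own library. Over whole libraries the 10 resting Treg markers summed to 1301, 1544 and 2108 CPM in epidermis, dermis and lymph node, and the 15 effector Treg markers to 8003, 12350 and 1601 CPM.

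Epidermal Bcl2 came almost entirely from the resting Treg-like cluster. That cluster held 226 of the 238 epidermal Bcl2 UMIs, at 384 CPM, while the effector Treg-like cluster had 0 UMIs and the other 2 clusters 4 and 8. The resting Treg-like cluster thus exceeded the effector Treg-like one at least 60.2-fold against a floor of 3 UMIs in the latter, and the exact counting interval of the ratio begins at 48.6-fold. After thinning, 44.4% of 72 resting Treg-like cells (32.7 to 56.6) and 0 of 64 effector Treg-like cells had a Bcl2 UMI, where 0 allows a share of up to 4.69% by the limit of 3 counts and up to 5.601% by the exact interval. Before thinning the shares were 67.1% and 0%. In the 215 epidermal cells outside the resting Treg-like cluster Bcl2 stood at 7.42 CPM (12 UMIs), close to the 4.59 CPM (19 UMIs) of dermal cells outside theirs, a ratio of 1.62 (0.715 to 3.51). The call between the skin layers was therefore lost without the resting Treg-like clusters, and no other of the 21 settings ended it.

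Dermal cells had little Bcl2 in the resting Treg-like cluster too, which differs from the others in the markers given above. It stood at 32.4 CPM there (16 UMIs in 7 of 75 cells), which is 11.9-fold lower than in the epidermal resting Treg-like cluster (7.14 to 21.1) and 18.3-fold lower than in the lymph node ones at 594 CPM (11.3 to 32.2). How many of these 16 UMIs lie in barcodes found in both skin libraries was not tested. The epidermal resting Treg-like cluster was 1.55-fold below lymph node (1.35 to 1.78), much nearer than the whole libraries. In lymph node the 13 clusters of at least 20 cells ranged from 86.5 CPM in the cycling-like cluster to 879 CPM in an unnamed cluster led by Lta, Lrrc32 and Socs2. Each of these lay above every dermal cluster, of which the highest was the resting Treg-like one. Lymph node effector Treg-like clusters had 197 CPM, 3.02-fold below the resting Treg-like ones (2.81 to 3.25), but dermal effector Treg-like clusters had 3 UMIs in all, 62.1-fold lower (21.2 to 301). The effector Treg-like clusters of dermis and lymph node also differ in the markers given above.

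Mcl1 varied little with state and mostly with tissue. It stood at 432 CPM in resting and 421 CPM in effector Treg-like cells of epidermis, 403 and 305 CPM in dermis, and 106 and 123 CPM in lymph node. Its range over clusters was 273 to 475 CPM in epidermis, 267 to 429 CPM in dermis and 78.0 to 141 CPM in lymph node, so no skin cluster overlapped a lymph node cluster. The resting Treg-like cells of epidermis exceeded those of lymph node 4.07-fold (3.44 to 4.80), and those of dermis 3.80-fold (3.17 to 4.54).

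Bcl2l1 and Bcl2a1b were higher in effector than in resting Treg-like cells, the reverse of Bcl2, though not in every cluster. In epidermis Bcl2l1 stood at 15.3 CPM (9 UMIs) in resting and 145 CPM (68 UMIs) in effector Treg-like cells, a 9.45-fold difference (4.70 to 21.5), and Bcl2a1b at 83.3 and 557 CPM, a 6.69-fold difference (4.91 to 9.27). The unnamed epidermal cluster with 5 effector markers raised stood lower, at 61.9 and 181 CPM. With it added to the effector Treg-like cells, a choice made after seeing the data, the differences were 6.43-fold (3.26 to 14.4) and 4.16-fold (3.08 to 5.72). In lymph node the effector Treg-like clusters were 2.31-fold higher for Bcl2l1 (1.75 to 3.08) and 3.59-fold higher for Bcl2a1b (3.02 to 4.29). For Bcl2l1 only 1 of the 2 effector Treg-like clusters carried this, at 59.9 CPM, while the other, at 24.2 CPM, was no higher than the resting Treg-like ones at 24.8 and 12.004 CPM. For Bcl2a1b they stood at 226 and 80.3 CPM, both above the resting Treg-like ones at 44.9 and 49.6 CPM. In dermis these differences were smaller, at 1.67-fold (1.19 to 2.39) and 1.23-fold (1.01 to 1.503). Dermal resting Treg-like cells had 296 CPM of Bcl2a1b against 83.3 CPM in epidermis and 46.8 CPM in lymph node, and 91.1 CPM of Bcl2l1 against 15.3 and 19.8 CPM. In lymph node both genes were highest in the cluster led by Egr2, Nr4a1 and Egr1, genes induced by antigen receptor signals, at 412 CPM for Bcl2a1b and 84.0 CPM for Bcl2l1.

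As a result the make-up of the pro-survival genes differed by state as well as by tissue. Bcl2 made up 76.7% of pro-survival UMIs in resting Treg-like cells of lymph node, 41.4% in epidermis and 3.76% in dermis. In effector Treg-like cells it made up 34.3% in lymph node, 0% in epidermis and 0.373% in dermis. Bcl2a1b was the largest of the 5 in effector Treg-like cells of both skin layers, at 46.5% in epidermis and 42.8% in dermis, while Mcl1 made up 35.1% and 35.9%. With the unnamed epidermal cluster added there, Mcl1 (451 CPM) exceeded Bcl2a1b (346 CPM). The pro-survival sum in effector Treg-like cells was 1199 CPM in epidermis, 850 CPM in dermis and 574 CPM in lymph node.

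The pro-death genes varied across clusters too. Pmaip1 was highest in the dermal cluster led by Ier3, Hspa1a and Cxcl2, at 140 CPM, and stood at 20.2 CPM in the lowest dermal cluster, which has Ifng and Ctla2b among its leading genes. Every lymph node cluster lay at or below 21.9 CPM. In resting Treg-like cells Pmaip1 was 4.44-fold lower in epidermis than in dermis (2.24 to 9.58), whereas in effector Treg-like cells the 2 skin layers stood at 68.0 and 62.4 CPM, a ratio of 1.09 (0.686 to 1.71). Bbc3 was highest in the dermal cluster led by Fos, Ulk2 and Hist1h1d, at 148 CPM, and lowest in the epidermal cycling-like cluster, at 12.8 CPM. Bax was highest in the dermal cycling-like cluster (286 CPM) and Bak1 in the lymph node cycling-like cluster (89.0 CPM). Bcl2l11 kept within 13.4 and 28.9 CPM across lymph node clusters and reached 67.8 CPM in a dermal effector Treg-like cluster.

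Calls on the gene lists that follow were made with the main scaling and cells only, and the shares of all genes called are those given above for each comparison. Among 16 other BCL2 family genes few reached 20 CPM. Of the 5 that did between epidermis and lymph node 1 was higher, Bnip3, a hypoxia-induced mitophagy gene, at 36.7, 19.0 and 6.53 CPM in epidermis, dermis and lymph node. Of the 4 between dermis and lymph node 1 was lower, Bcl2l12, at 11.2 against 23.3 CPM, and of the 4 between the skin layers none was called. Bid, the BH3-only link from death receptors to mitochondria, stood at 22.2, 32.8 and 18.5 CPM, and Bad, a BH3-only gene, at 22.7, 21.6 and 29.0 CPM. The median log2 ratio of the list was 0.12 between epidermis and dermis, -0.14 between epidermis and lymph node and -0.36 between dermis and lymph node.

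Downstream of the mitochondria, Apaf1, the apoptosome scaffold, stood at 21.3, 25.1 and 4.32 CPM in epidermis, dermis and lymph node, and was higher in epidermis than in lymph node. Between dermis and lymph node Apaf1 was higher and Diablo, which relieves caspase inhibition, lower (35.0 against 74.6 CPM), among 9 genes of this list at level. Of the 5 caspase inhibitor genes, Birc2 (130, 215 and 38.7 CPM) was higher in both skin layers than in lymph node, with Cflar (139, 113 and 69.3 CPM) in epidermis and Birc3 (78.5, 137 and 47.9 CPM) in dermis. Neither list held a gene called between the skin layers.

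In the death receptor list, Tnfrsf10b, which encodes the TRAIL receptor, stood at 18.1 CPM in epidermis, 47.7 CPM in dermis and 1.49 CPM in lymph node. It was lower in epidermis than in dermis, the only 1 of 8 genes called there, and 32.1-fold higher in dermis than in lymph node (23.4 to 44.6). In epidermis it lay under the 20 CPM that a call against lymph node needs. Its ligand gene Tnfsf10 was higher in both skin layers (32.7, 25.3 and 11.1 CPM), and the initiator caspase gene Casp8 was lower in dermis than in lymph node (80.8 against 185 CPM) and stood at 93.0 CPM in epidermis. Survival inputs with the largest ratios were the interleukin 7 receptor gene Il7r (321, 408 and 102 CPM), the kinase gene Pim1 (962, 1644 and 334 CPM) and Akt1 (56.2, 47.1 and 13.6 CPM). These 3 of 10 were higher in epidermis, and 4 of 10 in dermis, than in lymph node, with none lower. Over all genes compared 19.7% were higher in epidermis and 24.6% in dermis.

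Of 11 known transcriptional regulators of the members at level, Atf4, a stress-response factor known to activate Pmaip1, stood at 84.8, 234 and 43.6 CPM in epidermis, dermis and lymph node. It was the only regulator called between the skin layers. The NF-kB subunit gene Rel was higher in both skin layers than in lymph node (131, 244 and 47.2 CPM), and Nfkb1 in epidermis (172 against 71.1 CPM). Trp53, which encodes p53, was lower in epidermis than in lymph node (79.4 against 186 CPM), and Myc lower in dermis (16.0 against 52.3 CPM). In total 2 regulators were higher and 1 lower in epidermis, and 3 higher and 2 lower in dermis, than in lymph node. Over all genes compared these shares were 19.7% and 3.11% in epidermis, and 24.6% and 9.38% in dermis. Among 5 genes of Mcl1 protein turnover, the ubiquitin ligase gene Fbxw7 (29.0, 28.5 and 10.1 CPM) was higher in both skin layers and the deubiquitinase gene Usp9x (49.9, 84.9 and 30.7 CPM) in dermis, and none was lower.

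The genes whose 3 log2 ratios lay nearest to those of a member were found among 3067 genes with at least 50 CPM in a library. The pattern of Bcl2 was rare, and its nearest gene, Capn3, a calpain protease gene, lay 0.24 log2 units away (14.1, 0.864 and 59.7 CPM in epidermis, dermis and lymph node). Ms4a4c followed at 0.74 and Evl, an actin regulator also on the resting Treg marker list, at 0.86. Capn3 and Ms4a4c both stood at 0.864 CPM in dermis, near the floor of 3 UMIs, which is 0.648 CPM there. With 1 UMI worth 0.216 CPM, the distances of these genes rest on few dermal UMIs. Zmiz1 lay 0.03 units from Mcl1 (88.9, 81.4 and 25.6 CPM) and Kdm6b, a histone demethylase gene, 0.08 units from Pmaip1 (236, 499 and 47.6 CPM). Nearest to Bcl2l1 was Rbm33 at 0.05, to Bcl2l11 Chd4 at 0.03, to Bcl2a1b Nasp at 0.02 and to Bbc3 Map7d1 at 0.06. With 3 libraries these distances rest on 3 points and describe likeness of level only.

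**Figure D5:**
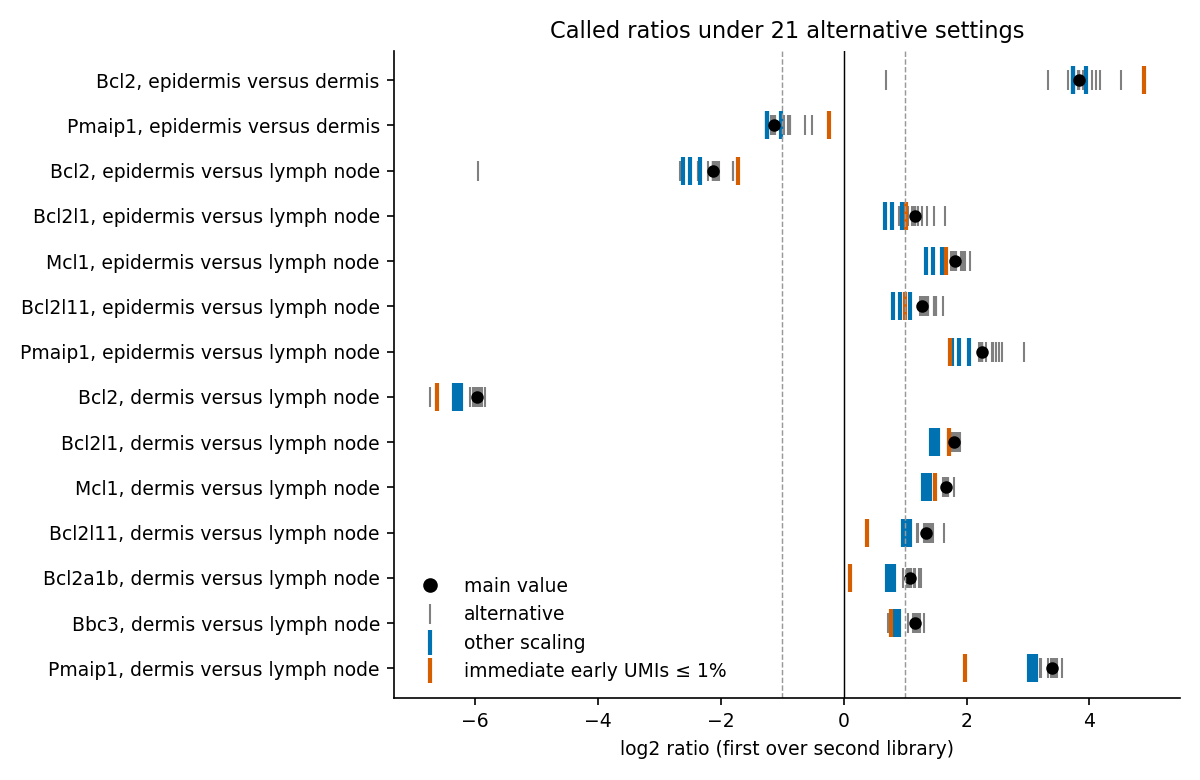
Log2 ratio of each called member under the main setting (black point) and 21 alternative settings (ticks), with other scalings in blue and cells of at most 1% immediate early UMIs in orange. Dashed lines mark 2-fold. No value crosses 0. The Bcl2 ratio of epidermis to dermis reaches its lowest, 0.69, without the resting Treg-like clusters.

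Skin libraries held cells with Y-linked and cells with Xist transcripts, so members were also compared within cells that had an Xist UMI and no Y-linked UMI (111 in epidermis, 723 in dermis, 7086 in lymph node). There Bcl2 stood at 70.3, 7.03 and 445 CPM, Mcl1 at 412, 360 and 116 CPM, and Pmaip1 at 47.7, 73.6 and 7.97 CPM. The order of the 3 tissues was as in all cells for each of these genes. It changed for Bcl2a1b (313, 267.5 and 131 CPM in epidermis, dermis and lymph node) and for Bcl2l11 (51.2, 44.5 and 16.7 CPM), which were then highest in epidermis. Bak1 (28.6, 26.5 and 39.8 CPM) was then highest in lymph node. The remaining members kept their order. Among cells with a Y-linked and no Xist UMI, Bcl2 stood at 101 CPM in 101 epidermal cells (84 UMIs) and 10.3 CPM in 55 dermal cells (3 UMIs), and lymph node had no such cell. The mix of these cells thus differed between libraries, and over all cells it cannot be told apart from tissue. Within cells with a Foxp3 UMI (118, 411 and 674) the log2 ratios of Bcl2 were 3.65, -2.38 and -6.03 for epidermis to dermis, epidermis to lymph node and dermis to lymph node.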

How the data were processed

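The authors deposited raw UMI counts for each gene in each cell barcode, per the file headers and the values. Cell Ranger and the build mm10 are named in the submitters' processing notes. File headers give its version as 4.0.0 for the skin libraries and give none for lymph node. The genes and lists were chosen with earlier results of these data known.

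Barcodes with at least 500 UMIs and at most 10% mitochondrial UMIs were kept. UMIs were summed per library and given as CPM with exact Poisson 95% intervals. Ratios had exact binomial 95% intervals, which cover counting error only. A ratio of at least 2-fold with at least 20 CPM in the higher library was called, and a floor of 3 UMIs stood in for 0. Shares of cells were taken after thinning each cell to 1500 UMIs. The ratio and call steps were tested on simulated data.

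Named were all 10 members, the 3 genes of each list that differed most at 20 CPM or more in each comparison, and the 3 genes nearest to each called member. The text describes those that were called or help to place a member, and some genes that the rule names are not reported here. Single cluster genes beside them were chosen after their values were seen.

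Clusters were made within each library (scanpy, 1500 variable genes, 20 principal components, 15 neighbours, Leiden resolution 1) without the members and the apoptosis lists. A name needed 3 markers raised, that is at least 1.5-fold above the rest with 20 CPM or more, and 1 of them among the 10 leading genes. Doublets were left in. Scrublet marked 23 epidermal, 32 dermal and 1 lymph node cell, and did not work in lymph node, where this is 0.0106%.

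No test between tissues was run, with 1 library each. Alternatives were 3 scalings, 3 level limits, 13 choices of cells, the mean of per-cell CPM and thinning. The 4 that drop shared barcodes, the shallower copies of them, resting Treg-like clusters or clusters led by mural or B cell genes were added after seeing the data. Software was scanpy 1.11.5, leidenalg 0.10.2 and scipy 1.17.1 under Python 3.11.15, and edgeR 4.0.16 (TMM factors only) under R 4.3.3. Promoters came from RefSeq (GRCm38.p6), in which 9 of 10 members are used here.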

Additional observations from a re-analysis of the deposited data

How the results depend on the processing

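No paired analysis was possible because each tissue had 1 library. Of the 14 called ratios, 6 kept their call under all 21 alternatives (Mcl1 and Bcl2 against lymph node in both skin layers, and Bcl2l1 and Pmaip1 in dermis against lymph node), and all 14 kept their direction. Between epidermis and dermis the number of members called fell from 2 to 1 in cells with a Foxp3 UMI, without cells above the 95th UMI percentile, in Xist-positive cells that lacked Y-linked UMIs, without barcodes in both skin libraries, with the mean of per-cell CPM and in thinned cells, and to 0 without the resting Treg-like clusters. Between epidermis and lymph node it fell from 5 to 3 with TMM scaling, with median-of-ratios scaling and with a limit of 50 CPM. Bcl2a1b gained a call as higher in that comparison under some settings, among them without barcodes in both skin libraries and in thinned cells. Between dermis and lymph node the number called fell from 7 to 4 with TMM scaling. In cells of at most 1% immediate early UMIs the numbers were 2, 5 and 5, but Bcl2a1d replaced Pmaip1 between the skin layers, and between dermis and lymph node Bcl2l11, Bcl2a1b and Bbc3 lost their calls while Bcl2a1d gained one as lower. Both Bcl2a1d calls rest on few dermal UMIs. The stricter limit removes members by its construction. All 3 level limits leave each ratio as it is, so no direction could change under them. A limit of 10 CPM or none cannot end a call of higher or lower. For the other settings the cause was not tested beyond the cells left out. Median-of-ratios scaling gave shares of called genes that were higher of 35.8%, 52.5% and 50.9%, and totals without mitochondrial and ribosomal protein genes gave 67.9%, 70.0% and 46.0%, in the order epidermis to dermis, epidermis to lymph node and dermis to lymph node. Depth limits dermal Bcl2 most, with 35 UMIs in all, where 1 UMI is worth 0.216 CPM.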

Other observations

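Barcodes over the mitochondrial limit, which no comparison above uses, carried members too. In the 63 such epidermal barcodes Bcl2 stood at 459 CPM of non-mitochondrial UMIs (40 UMIs, 95% interval 328 to 625), against 112 (98.6 to 128) in the kept epidermal cells. Mcl1 stood at 597 (446 to 783) against 418 (391 to 447), and Bcl2l1 at 80.4 (32.3 to 166) against 77.5 (66.1 to 90.3). In the 202 dermal barcodes over the limit Bcl2 stood at 21.9 (5 UMIs, 7.10 to 51.1) against 7.92 (5.52 to 11.0), and Mcl1 at 376 (301 to 465) against 379 (361 to 397). These barcodes were shallower, with medians of 1705 UMIs in epidermis and 1227 in dermis against 6671 and 4726 in kept cells. The mitochondrial limit thus removed epidermal barcodes with more Bcl2 than those it kept, while the BH3-only gene Pmaip1 stood at 45.9 (4 UMIs, 12.5 to 118) against 36.8 (29.1 to 46.0) there. Whether these barcodes are resting Treg-like cells was not tested.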
